A study of Carex littledalei with 18 samples.

Results

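Leaves of Kobresia littledalei (Carex littledalei), a sedge of high alpine meadow, were compared between late and early cold. The late pool was 9 libraries, 3 each from plants held at -5 °C for 12, 24 and 48 h. The early pool was 8 libraries from plants held there for 0 h (3 libraries), 0.5 h (3 libraries) and 4 h (2 libraries). The 17 libraries are all but 1 of the 18 in the series, and each was placed by its labelled time alone. The 18th, 4 h replicate 1, held the same values as 0 h replicate 1 in all 214531 rows and was dropped. Both of its labels are early times, so the pool it belongs to does not depend on which label is right.

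All plants came from field sites in Tibet and had stood in pots at 25 °C for 7 days before the move. They were wild plants of no stated genotype or age, and no agent other than cold was given. Each time was 1 pot, so the pools compare 3 late pots with 3 early pots. No pot kept warm for 12 h or longer was included, so the length of cold, the time since the move and the pot cannot be told apart. The labels do not say whether the libraries of a pot came from separate plants, so p-values measure the spread between these libraries, which may be technical.

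Plants of cold climates prepare for freezing over hours to days, a process called cold acclimation. Best known from Arabidopsis, it starts with short-lived transcription factors of the CBF/DREB1 family, which switch on longer-lasting targets such as dehydrins, other late embryogenesis abundant proteins and enzymes that make protective sugars. A pooled late against early comparison asks which transcripts stayed at another level once the first hours had passed. A gene here is a Trinity gene, a cluster of transcripts assembled from the reads. The files do not pair the identifiers with gene names, so no transcript could be matched to these families, and leaf marker genes could not be looked up. In bulk leaf RNA, fewer cells of a type and less RNA per cell cannot be told apart.

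In late cold 265 genes rose and 50 fell, of 45489 tested (edgeR's quasi-likelihood test, adjusted p under 0.05). These are 0.583% and 0.11% of the genes tested, or 0.692% for the 315 together, and 84.1% of all calls were rises. At an unadjusted p under 0.05 there were 5277 genes, where 2274 would be expected if none had changed and the libraries were independent. Libraries of the same time share a pot, and how far pot differences add to the excess was not tested. The rises were larger than the falls. Their median log2 fold change was 2.75 (quartiles 2.04 and 3.98), against a median of -1.49 for the falls (quartiles -1.90 and -1.23), and the median over all genes tested was 0.000571. Among the rises, 3 were under 2-fold, 58 were 2- to 4-fold, 138 were 4- to 16-fold, 43 were 16- to 64-fold and 23 were 64-fold or more. Among the falls, 8 were under 2-fold, 34 were 2- to 4-fold, 5 were 4- to 16-fold and 3 were 16- to 64-fold.

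**Figure D1:**
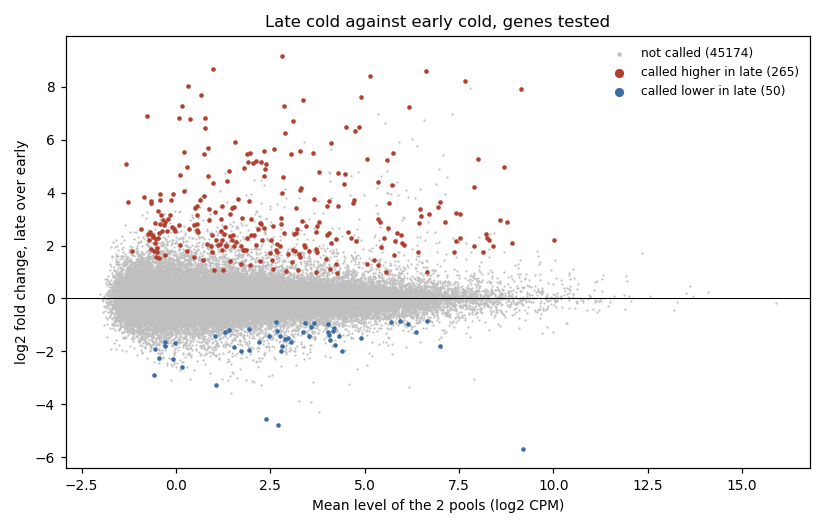
Each point is 1 of the 45489 genes tested, with the mean level of the 2 pools (log2 CPM, reads scaled to library size) across and the log2 fold change of late over early cold upward. The 265 rises reach a log2 fold change of 9.17, whereas most of the 50 falls lie near their median of -1.49 and 1 point stands at -5.67.

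Library 24 h replicate 2 stood apart, as 7.42% of its counts fell on genes left untested, having enough reads in too few libraries. The share was 0.677% to 3.53% in the other 8 late and 0.513% to 1.60% in the 8 early libraries. It held nearly all reads of 27849 genes, against 7035 such genes in 12 h replicate 2, the next highest. Without 24 h replicate 2, 202 genes rose (0.456% of 44303 tested) and 20 fell (0.0451%). Of these, 200 and 20 were among the 265 and the 50. The number of falls also changed by more than 1.5 times when a single other library was left out: to 30 for 0.5 h replicate 2, to 33 for 4 h replicate 2, to 27 for 24 h replicate 1 and to 32 for 48 h replicate 1. The number of rises lay between 192 and 286 when any 1 of the 17 libraries was left out. The genes called also changed: 153 of the 265 rises and 13 of the 50 falls were called in every one of these fits.

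Because libraries of a pot share that pot, the pools were also compared pot by pot. With counts summed over each pot, 3 late against 3 early, edgeR called 16 rises, all among the 265, and 0 falls, with 3739 genes at an unadjusted p under 0.05 in both directions. With pot as a random block in limma-voom, 221 genes rose and 39 fell, and 188 and 34 of them were among the 265 and the 50. The within-pot correlation that this fit estimated over all genes was 0.00931. It is a consensus over genes and does not give the pot differences of the called genes. With whole times left out one after another, 85 of the 265 rises and 3 of the 50 falls were called in all 6 fits. Fewest were called without the 24 h libraries (129 rises, 13 falls). There were 131 rises and 29 falls without the 0.5 h libraries, and 167 and 28 without the 4 h libraries. Falls alone went to 23 without the 12 h libraries and 30 without the 48 h libraries.

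**Figure D2:**
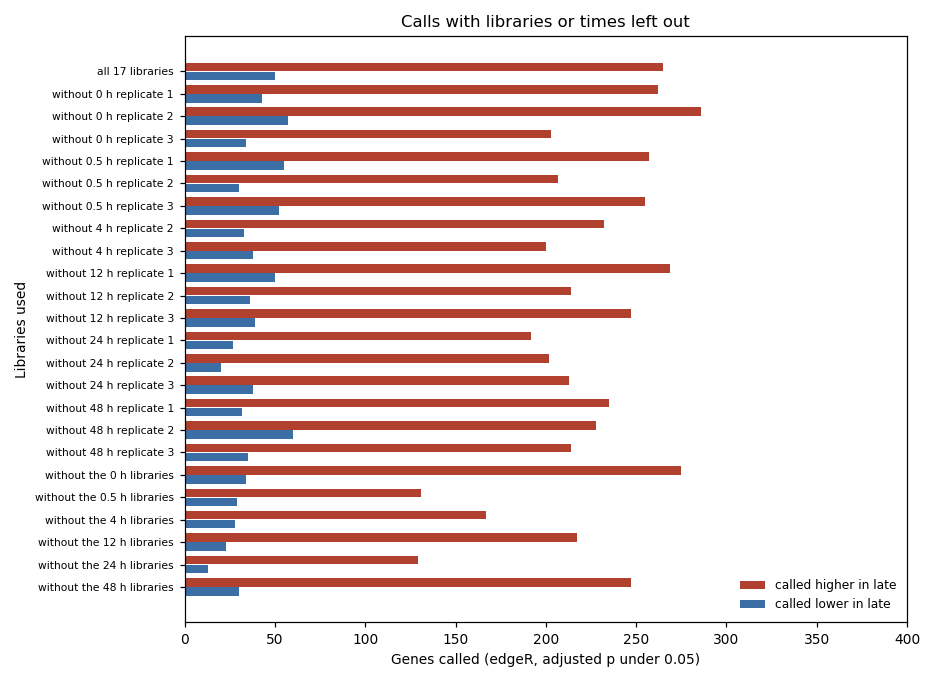
Bars give the number of genes called higher and lower in late cold with all 17 libraries, with each library left out, and with all libraries of each time left out. All 265 rises and 50 falls stand at the top, and the shortest pair of bars, 129 and 13, belongs to the fit without the 24 h libraries.

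The pools were well separated in many of the genes that rose. In 126 of the 265, every late library lay above every early library. That is 47.5% of the rises, against 0.301% of all genes tested, and the same contrast chose both. In a further 65 rises 8 of the 9 late libraries lay above all early ones. Of the 50 falls, 10 had every late library below every early library, against 0.0308% of all genes tested. Taken by pot, the 3 late means lay above the 3 early means in 261 of the 265 rises (8.3% of genes tested) and below them in 47 of the 50 falls (7.4%). The authors' table, scaled for gene length, gave no overlap in 121 rises and 7 falls.

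The transcript with the strongest evidence of a rise was TRINITY_DN203178_c3_g3. It had 88.5 CPM (reads scaled to a common library size) at the lowest, 199 at the median and 371 at the highest in the 9 late libraries, against 0.0564, 0.391 and 1.2 CPM in the 8 early libraries. Every late library was more than 50-fold above the highest early one. Its means were 195 ± 84 CPM in late cold (SD, n = 9) and 0.500 ± 0.37 CPM in early cold (n = 8), a log2 fold change of 8.59 with an SE of 0.53 (edgeR, adjusted p = 4.47e-08). Its mean CPM was 0.415, 0.223 and 1.04 over 0, 0.5 and 4 h of cold, then 143, 205 and 238 over 12, 24 and 48 h. The 2 libraries of 4 h had the highest early values, 0.893 and 1.20 CPM, but the early times did not differ by the test (adjusted p = 0.397). The component holding it, a set of transcripts linked by shared sequence, had 3 genes tested, and all 3 rose, with log2 fold changes of 8.59, 5.87 and 5.53.

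TRINITY_DN203612_c1_g5 followed. Its lowest, median and highest values were 36.6, 49.8 and 91.3 CPM in late cold, against 0.0794, 0.669 and 1.1 CPM in early cold, with no overlap. It averaged 56.6 ± 20 CPM in late (SD, n = 9) and 0.629 ± 0.32 CPM in early libraries (n = 8), a log2 fold change of 6.49 with an SE of 0.42 (edgeR, adjusted p = 5.17e-08). Within the late pool its means of 47.8, 70.0 and 52.0 CPM at 12, 24 and 48 h were close to each other. All 5 tested genes of its component rose, by log2 fold changes of 5.92 to 9.17. Summed over them, the component had a mean of 547 CPM in late and 2.28 CPM in early cold. Reads can be divided among the genes of a component, so the 5 are not independent transcripts.

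The next 8 rises by the same ranking had log2 fold changes between 5.58 and 9.17. The one with the most reads, sixth in rank, had 513, 1110 and 1760 CPM as its lowest, median and highest late values, against 0.882, 4.69 and 8.98 CPM in early cold. The one with the largest fold, ninth in rank, had 1.62 to 26 CPM in late cold, against 0 to 0.112 CPM in early cold, where its median was 0. Each of these 8 had all 9 late libraries above all 8 early ones, which the ranking required. Neither the late times nor the early times differed by the test in any of the 10 (adjusted p of 0.342 or more among late and 0.321 or more among early times).

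For falls the ranking gave TRINITY_DN205418_c0_g3 first. It had 33.3, 47.8 and 66.4 CPM as lowest, median and highest in late cold, against 83.8, 108 and 174 CPM in early cold. The highest late value, in 48 h replicate 2, stayed below the lowest early one, in 0.5 h replicate 3. The means were 47.8 ± 11 CPM (SD, n = 9) in late and 116 ± 33 CPM (n = 8) in early libraries, a log2 fold change of -1.28 with an SE of 0.20 (edgeR, adjusted p = 0.00243). Of the 6 genes tested in its component 2 fell. The other 4 had log2 fold changes between -0.83 and 0.04, with adjusted p-values of 0.238 to 0.964.

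TRINITY_DN203854_c0_g4 was second among the falls. It had 7.91, 11.0 and 15.4 CPM as lowest, median and highest in late cold, against 17.3, 21.0 and 27.6 CPM in early cold. The pools were separate, with 48 h replicate 2 the late library nearest to the early ones. Its log2 fold change was -0.97 (SE 0.16, edgeR adjusted p = 0.0039), from means of 11.0 ± 2.1 CPM in late (SD, n = 9) and 21.6 ± 3.7 CPM in early cold (n = 8). In its component 3 of 5 tested genes fell. With counts summed per pot the fold changes of both genes stayed at -1.23 and -0.98, with adjusted p-values of 0.245 and 0.3. That of TRINITY_DN203854_c0_g4 was also above the threshold with library size alone (0.0585) and with no filter (0.0662).

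**Figure D3:**
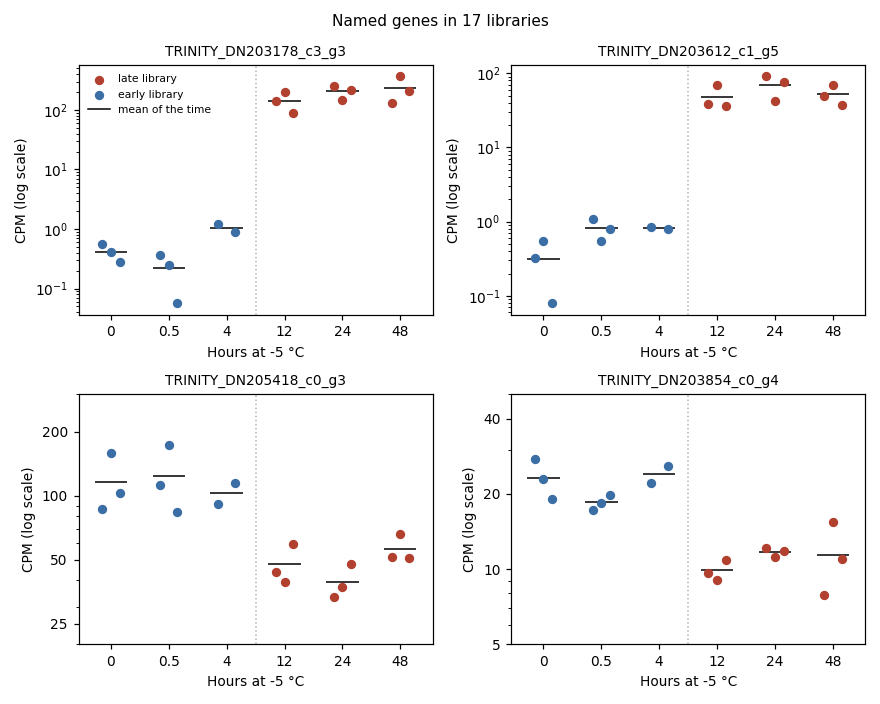
CPM on a log scale against hours at -5 °C for the 2 named genes that rose (top) and the 2 that fell (bottom), with a point for each library and a line at the mean of each time. In all 4 panels the 9 late libraries are separate from the 8 early ones, by more than 10-fold in the upper panels and by less than 2-fold between the nearest libraries in the lower ones.

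Only 9 of the 50 falls met the rule used to rank genes (no overlap, and a mean of at least 5 CPM in the higher pool), against 77 of the 265 rises. The 9 came from 6 components and had log2 fold changes of -0.84 to -1.49. The fall of largest size within them had 8.82, 13.6 and 22.4 CPM as lowest, median and highest in late cold, against 25.1, 43.8 and 63.2 CPM in early cold. The highest of the 9 by reads had 41.8, 74.7 and 98.1 CPM, against 112, 128 and 149 CPM.

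The genes with the largest folds had a median mean level of 14.7 CPM in late cold, against 0.101 CPM in early cold. The 23 genes of 64-fold or more came from 16 components, and 22 of them had no overlap between pools. The median of their mean levels was 0.0681, 0.0484 and 0.0975 CPM over the early times (0, 0.5 and 4 h), and 13.9, 19.2 and 12.2 CPM over the late times (12, 24 and 48 h). In 10 of the 23, fewer than 10 reads were counted over all 8 early libraries, so the exact size of these folds rests on few reads. Over the 23, early reads ran from 1 to 925, and the highest early mean was 4.73 CPM. No called gene had 0 reads in every early or every late library.

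Not every large difference was called. Of 100 genes with a fitted rise of 16-fold or more, 66 were called and 34 were not, and 0 of the 34 were free of overlap. Their late means differed among times by a median of 6.98 on the log2(CPM + 0.1) scale, against 1.39 in the 66. In 27 of the 34 a single library held 50% or more of all reads: 12 h replicate 1 in 15, 12 h replicate 2 in 10 and 24 h replicate 2 in 2. The same held for 5 of the 66.

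Levels can be compared between genes only per length, on the authors' scaled signal. On that scale 37 of the rises averaged at least 100 in late cold, against 1 of the falls in early cold. The rise with the highest late signal had 2190 ± 1150 in late (SD, n = 9) and 270 ± 173 in early libraries (n = 8). In CPM it had 250, 698 and 1180 as lowest, median and highest in late cold, against 9.44, 81.4 and 217 in early cold. It was thus a transcript already present before the cold that went up further, by 2.96 on the log2 scale (SE 0.47, adjusted p = 0.00259 in edgeR). The second by late signal, at 2090 ± 1320 against 59.2 ± 44, had 187, 354 and 1120 CPM in late cold as lowest, median and highest, against 2.55, 11.2 and 31.8 CPM in early cold. It rose by 5.27 on the log2 scale (SE 0.54, adjusted p = 1.5e-05 in edgeR).

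The 265 rises together held 1.02% to 2.80% of the counts of a late library, with a median of 1.47%, against 0.165% to 0.387% of an early library, with a median of 0.241%. The 50 falls held 0.0351% to 0.0707% in late and 0.0986% to 0.656% in early libraries. The lowest early share was above the highest late share for the falls, and the reverse for the rises. These sums run over genes picked by the contrast and only describe how much of the leaf's polyadenylated RNA was involved. The 100 most abundant genes held 30.5% ± 5.2 of counts in late (SD, n = 9) and 30.3% ± 5.0 in early libraries (n = 8; exact permutation test, two-sided, p = 0.926 over 24310 splits). Genes at 1 CPM or more numbered 33943 ± 5058 in late and 33328 ± 3998 in early libraries (exact permutation test, p = 0.788).

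The late times did not contribute alike to the rises. Of the 265 rises, 163 had their highest late mean in the 24 h pot (61.5%), 79 in that of 48 h (29.8%) and 23 in that of 12 h (8.68%). Over all genes tested the shares for 24, 48 and 12 h were 30.2%, 38% and 31.7%. The values of all 3 late times entered the contrast that chose the rises, so these shares are a description. Without the 12, 24 or 48 h libraries, 217, 129 or 247 genes rose. The median of mean levels of the rises was 5.64, 9.22 and 7.92 CPM over 12, 24 and 48 h. For the falls the lowest late mean came in the 12 h libraries for 20 genes, in those of 24 h for 12 and of 48 h for 18, and the medians were 3.89, 4.04 and 4.15 CPM. The median fall thus stood at a like level at all 3 late times.

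**Figure D4:**
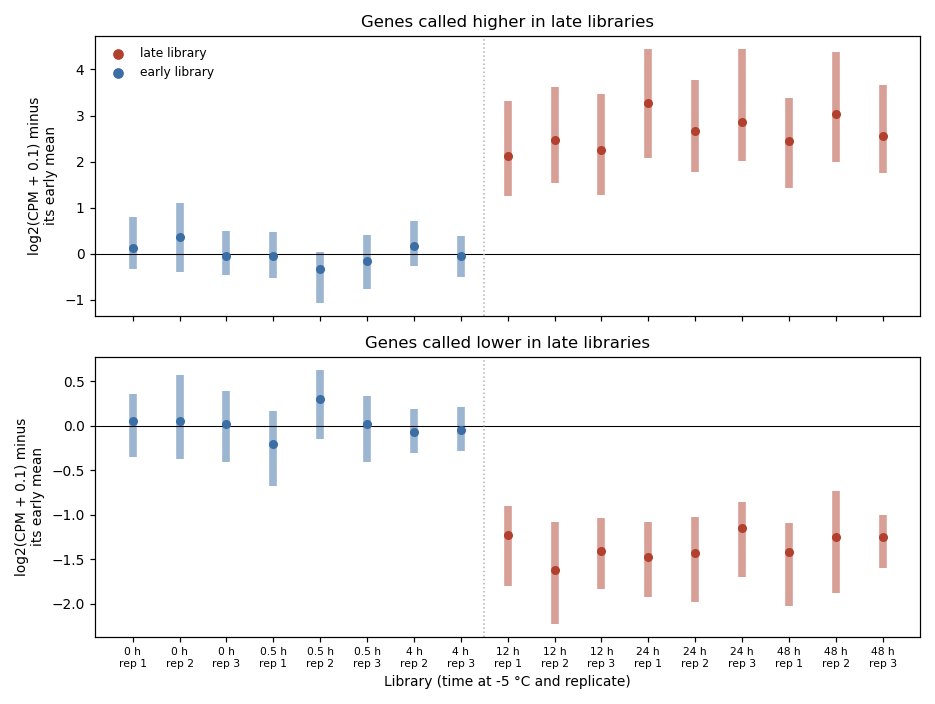
For each of the 17 libraries, the point is the median and the bar the interquartile range, over the 265 rises (top) or the 50 falls (bottom), of log2(CPM + 0.1) minus the gene's early mean. Among the rises the late medians run from 2.13 in 12 h replicate 1 to 3.27 in 24 h replicate 1, and the early ones from -0.32 to 0.38; among the falls the late medians run from -1.62 to -1.15.

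Differences within the late pool were tested with 1 mean per time. Among 12, 24 and 48 h 96 genes differed, 0.211% of those tested (edgeR's quasi-likelihood test, 3916 at an unadjusted p under 0.05), and 1 of them was among the 315 called late against early (54 at an unadjusted p under 0.05). That gene, a rise, had means of 25.5, 29.4 and 2.09 CPM over 12, 24 and 48 h, so that 48 h lay at the level of early cold, where means were 2.06, 2.72 and 4.04 CPM at 0, 0.5 and 4 h. Its adjusted p among late times was 0.0177, and the call was absent without any 1 of the 48 h libraries. Over 12, 24 and 48 h, the time of the highest late mean split the 96 into 24, 34 and 38 genes, against 31.7%, 30.2% and 38% of all genes tested. By the time of the lowest mean, in the same order, the split was 11, 29 and 56 genes, against 29.7%, 30.9% and 39.4%. Leaving out 48 h replicate 1, 2 or 3 turned the 96 into 11, 2 or 3. Leaving out 24 h replicate 2 or 3 gave 47 or 56, 4 h replicate 2 or 3 gave 54 or 63, and 12 h replicate 3 gave 148. Of the 315, 2 differed when 12 h replicate 2 or 24 h replicate 1 was left out. A p above the threshold does not show that late times were alike. The rises differed among them by a median range of 1.11 on the log2(CPM + 0.1) scale, and the falls by 0.52.

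At 4 h the rises stood, at the median, near the level of 0 h. Their median of mean levels was 0.898, 0.703 and 0.913 CPM over 0, 0.5 and 4 h. In 123 of them the highest early mean belonged to 0 h, in 48 to 0.5 h and in 94 to 4 h (46.4%, 18.1% and 35.5%, against 33.6%, 35.2% and 31.2% of all genes tested). Both 4 h libraries lay above the other 6 early libraries in 18 of the 265 (6.79%), against 5.0% of all genes tested. Among the falls both 4 h libraries lay below the other 6 early ones in 3 of 50 (6%), against 5.59% of all genes tested. The lowest early mean of a fall belonged to 0 h in 6 genes (12%), to 0.5 h in 18 (36%) and to 4 h in 26 (52%), against 32.1%, 29.2% and 38.6% of all genes tested. The early times also entered the contrast. All of these values count the identical library as 0 h, and they were not redone with it at 4 h.

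Among 0, 0.5 and 4 h 32 genes differed, 0.0703% of those tested (edgeR's quasi-likelihood test, 4172 at an unadjusted p under 0.05). Of the 315, 75 were at an unadjusted p under 0.05 by this test, and 4 were among the 32. Of these 4, 2 were rises. One had 5.20 and 6.72 CPM in the 4 h libraries, with means of 0.429 at 0 h and 1.76 at 0.5 h, and reached means of 81.4, 146 and 87.9 CPM at 12, 24 and 48 h (adjusted p among early times 0.0245). Its 4 h libraries were the highest of the early pool and lay below all late ones. The other was first lower, with early means of 41.8, 4.24 and 6.37 CPM in time order and late means of 167, 298 and 246 CPM (adjusted p among early times 0.0321). In 19 of the rises (7.17%) the 0 h mean was at least 4 times those of both 0.5 and 4 h, against 1.32% of all genes tested. In 5 (1.89%) the 4 h mean was at least 4 times both others, against 0.534%. The identical library counted as 0 h in these shares and for the 2 rises described, where it had 0.554 and 48.6 CPM. Placed at 4 h, it would lie below the other 4 h libraries of the first rise and above those of the second. The early pattern of these rises thus depends in part on its label.

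The remaining 2 were falls, and both were high at 0.5 h alone. The gene with the largest fall, at -5.67 on the log2 scale (SE 1.25, adjusted p = 0.0387 in edgeR), had 1020, 3900 and 4270 CPM in the 0.5 h libraries. At the other times (0, 4, 12, 24 and 48 h) its means were 16.6, 14.3, 26.2, 26.5 and 15.4 CPM. It was high only in the 3 libraries of 0.5 h, and late and other early libraries overlapped. The third largest fall, of -4.55 (SE 1.01, adjusted p = 0.0396), had 5.88, 12.9 and 57.8 CPM at 0.5 h and means between 0.307 and 0.928 CPM at the other times. The second largest, of -4.76 (SE 0.98, adjusted p = 0.0241), had a mean of 31.5 CPM at 0.5 h and means of 0.335 to 1.68 CPM at the others, with an adjusted p among early times of 0.0695. These 3 were the falls whose pot means overlapped, and without the 0.5 h libraries 17 of the 50 falls were still called. The 4 genes that differed among early times became 1 when replicate 1 or 2 of 0 h, or any library of 4 h, was left out. They became 2 when replicate 2 or 3 of 0.5 h, or replicate 2 of 24 h, was left out. With the identical library placed at 4 h, 1 of the 315 differed among early times. The 32 became 2 with that placement. Leaving out 0 h replicate 1 or 2 gave 10 or 9, 0.5 h replicate 2 gave 12, 4 h replicate 2 or 3 gave 14 or 12, 12 h replicate 1 gave 55 and 24 h replicate 2 gave 17.

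**Figure D5:**
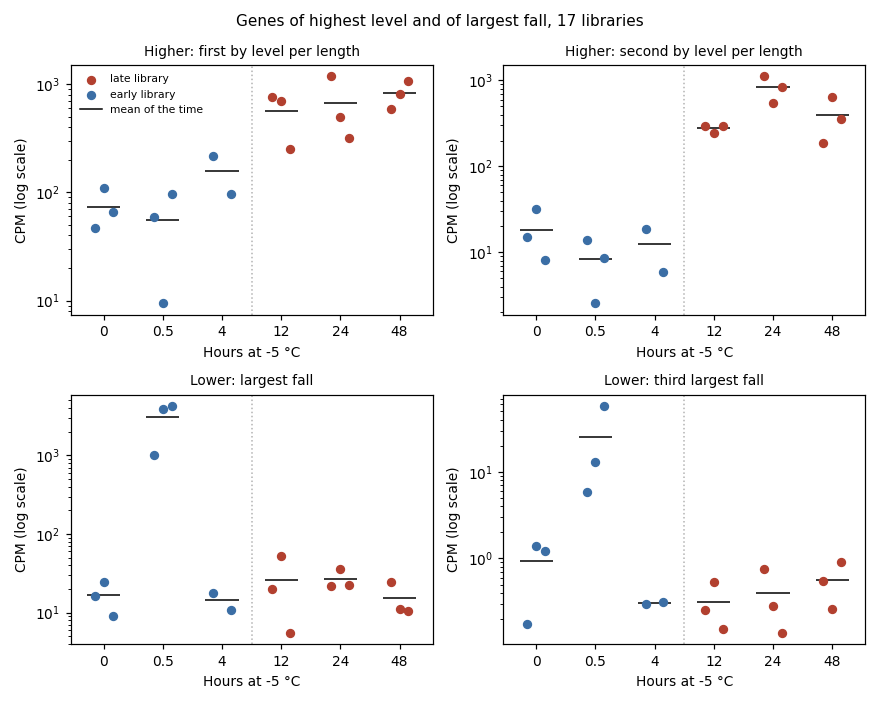
CPM on a log scale against hours at -5 °C for the 2 rises of highest late level per length (top) and for the largest fall and the third largest fall (bottom), with a point for each library and a line at the mean of each time. The upper genes are high at all 3 late times, and the lower genes are high at 0.5 h alone, up to 4270 and 57.8 CPM.

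Without the gene of the largest fall, the other falls held 0.0329% to 0.0693% of counts in late and 0.0970% to 0.161% in early libraries. That gene alone held a mean of 0.305% of counts at 0.5 h, against 0.00166% at 0 h and 0.00136% at 4 h.

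Called genes were grouped by component. The 265 rises came from 189 components, of which 51 held at least 2 of them, up to 6 in 1 component. The 50 falls came from 42 components, of which 7 held at least 2. In 0 components was 1 gene called higher and another called lower (edgeR, adjusted p under 0.05). Falls were 0.11% and rises 0.583% of all genes tested, so at those shares few opposite calls, or none, would be met in any case. A further 201 tested genes shared a component with a rise without being called, and 151 of them (75.1%) had a log2 fold change above 0, against 50.1% of all genes tested; their median was 0.40. Of 61 uncalled genes that shared a component with a fall, 51 (83.6%) were below 0, with a median of -0.78. How far reads shared between the genes of a component move with these values was not tested. With counts summed per component, 129 components rose and 37 fell of 22421 tested.

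Among the 5 components with at least 4 rises, the one with the highest summed CPM had 4 genes tested, all of which rose, by log2 fold changes of 2.08 to 2.91. Summed over the 4, its mean was 2550 CPM in late and 561 CPM in early cold. Another, with 6 of 8 tested genes called, had 84.9 CPM in late and 7.16 CPM in early cold by the same sum.

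Assembled length was compared as a description, with no test. Relative length was read from the ratio of the authors' counts to their length-scaled signal, with the median tested gene at 1. The median was 0.735 for the rises and 1.30 for the falls. Of the rises 62.3% were shorter than the median tested gene, against 34% of the falls. An assembled gene may be a fragment, so these are lengths of assembled sequence. By reads, which also depend on length, the rises were spread widely. In late cold 161 of 265 averaged at least 5 CPM and 5 averaged under 1 CPM. Of the falls, 37 of 50 averaged at least 5 CPM in early cold. On the length-scaled signal, 145 of the 265 rises and 23 of the 50 falls averaged at least 10 in the higher pool.

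The precision of the comparison differed between genes. In 18606 of the 45489 genes tested (40.9%) the 95% interval of the log2 fold change lay within 2-fold in both directions. For 26568 genes without a call the interval reached past 2-fold, so a change of that size was not excluded. The median half-width of the interval was 0.77 on the log2 scale. Of the rises 233 had an interval wholly past 2-fold and 100 wholly past 4-fold, and of the falls 16 and 4.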

How the data were processed

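Leaf polyadenylated RNA was sequenced, and library totals were 25050553 to 32345479 counts in late and 18895399 to 29124079 in early libraries. Reads were trimmed with Trimmomatic 0.36, per the submitters' processing notes. Aligner and counter: not given in the sources used here, although they decide how reads are divided among similar genes. The authors deposited expected counts per assembled gene (library totals differ, so not scaled to a common total), rounded here for tests, and a signal table scaled for gene length and by TMM (a composition factor) per its file name. Its unit could be TPM or FPKM; neither is named. Columns were matched by title (0 unmatched).

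Genes kept by filterByExpr on the 2 pools went into edgeR 4.0.16 under R 4.3.3 (TMM, quasi-likelihood F test, 1 mean per pool, Benjamini-Hochberg over all genes tested, threshold 0.05). CPM are scaled by TMM, except that genes at 1 CPM or more were counted on library totals alone. The biological coefficient of variation was 61.2%. SEs and intervals are back-calculated from F. Alternatives included DESeq2 1.42.0 and limma 3.58.1. The procedure was tested on simulated data. Named genes were the 2 per direction with the largest F among calls with no overlap and at least 5 CPM in the higher pool, from different components. The next ranks are described without identifiers, and genes described by level, fall size or time difference were chosen after their values were seen. The comparison and lists were chosen with earlier results of these data known. Gene lists planned by symbol were not run, since the files give no names.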

Additional observations from a re-analysis of the deposited data

Results flagged for a closer look

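Genes left untested, having enough reads in too few libraries, held 7.42% of all counts in 24 h replicate 2. That was the highest share of the 17 libraries. The repeat of the comparison without that library was planned beforehand, because that library held nearly all reads of many genes. Of the 315 genes called late against early, 1 differed among 12, 24 and 48 h and 4 differed among 0, 0.5 and 4 h by the direct test of those times. A gap between 1 library and the rest was looked for in 16 sets of late or early values. The sets were the 4 named genes, the shares of counts held by the rises, by the falls and by the 100 most abundant genes, and the number of genes at 1 CPM. In 0 sets was such a gap found. Chance flags about 1 in 20 of sets picked without regard to their values. The named genes and the genes behind the shares of rises and falls were picked by the contrast, so that rate does not apply to them. The share of counts on untested genes was not among the sets.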

How the results depend on the processing

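Late against early, the counts of rises and falls were 265 and 50. They were 746 and 342 in DESeq2, 16 and 0 with sums per pot (edgeR, 3739 genes at an unadjusted p under 0.05), 132 and 10 at an adjusted p of 0.01, and 131 and 29, 167 and 28, and 129 and 13 without the 0.5, 4 and 24 h libraries. Rises were 129 with sums per component. Falls were 23 with no filter, 105 with both identical columns kept, 76 with 1 mean per time, and 23 and 30 without the 12 and 48 h libraries. Leaving out each library gave 192 to 286 rises and 20 to 60 falls. With the replicate number as a block, rises were 194 and falls 20. The numbers share no stated source: deviations of same-numbered libraries had a median correlation of -0.0429 over 40 pairs, against 0.0338 over 80 pairs of other numbers, and 3 of 17 libraries correlated best with their own number.

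Among late times, 1 of the called and 96 of all genes differed, with ranges of 0 to 2 and 2 to 148 over libraries left out, and 0 (47 at an unadjusted p under 0.05) and 23 with the replicate block. Among early times 4 and 32 differed, with ranges of 1 to 5 and 9 to 55, 15 of all genes with the block, 1 and 2 with the identical library at 4 h, and 1 and 10 without it. The late minus early difference in genes at 1 CPM was 615, and -618 without 24 h replicate 2 (exact permutation p = 0.749). Causes were not tested. Sums per pot leave 6 samples, and how far that number alone lowers the counts was not tested. The 2 named rises were called in all 38 settings tried, with log2 fold changes of 7.88 to 9.21 and 5.76 to 6.77. The 2 named falls were called in 37 and 35. Leaving out the identical library and leaving out 0 h replicate 1 were the same fit, counted as 2 of the 38.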
